A study of Homo sapiens with 6 samples.

Results

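The genes described here are the 6 subunits of the MCM2-7 helicase (MCM2, MCM3, MCM4, MCM5, MCM6 and MCM7), the loading factors CDC6 and CDT1, the licensing inhibitor GMNN (geminin) and PCNA, the sliding clamp of replication. They were chosen by name and not by a rule on their measured values, but with earlier results of these data known. All 10 were found among the 12180 genes of the gene table, with 25 transcripts among the 33090 of the transcript table. All 10 genes and all 25 transcripts passed the filter on low values. RNA was measured in 6 libraries of TE-1 cells, a human cell line of esophageal squamous cell carcinoma (ESCC). The 3 FGL1-OE libraries came from cells made to overexpress FGL1, a secreted fibrinogen-like protein, and the 3 NC libraries were their controls, which the labels give as wild type and the study's methods as cells that received a nonsense sequence. The study's methods describe modified cells as stable lines made by lentiviral infection and puromycin selection, with a nonsense construct as control, and no further treatment or time point was given. Nothing in the labels said that the 3 libraries of a group came from separate cultures, so p-values measured only the spread between these libraries, which may be technical. The study sequenced these cells to look for genes downstream of FGL1, and the comparison here asked whether RNA of the licensing genes differed between the groups.

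Before a cell copies its DNA, each origin of replication is licensed in G1 phase. The origin recognition complex (ORC) recruits CDC6 and CDT1, which together load the ring of MCM2 to MCM7 around the DNA as an inactive helicase, and geminin holds CDT1 back once S phase has begun. In S phase the loaded rings are activated and unwind the DNA, and PCNA, loaded behind the fork by the RFC clamp loader, keeps the DNA polymerases on their template. Transcription of many of these genes is known to be driven by E2F factors at the G1/S transition, and squamous carcinomas, as dividing tissues, commonly express them.

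The promoters of these genes hold short E2F words. The stretches that carry them upstream of the start of transcription are shown because 8 of 8 genes held at least 1 such word. These 8 are the genes with a promoter entry in the RefSeq table (GRCh38.p14), and not every entry of a gene held a word. The words searched, on both strands, were TTTCCCGC, TTTGGCGC, TTTCGCGC and TTTGCCGC, and a window ran from 250 bases before to 50 bases after the start. Of all 35116 promoters in the table, 1164 (3.31%) held 1 of the 4 words. In the sequences below, written 5′ to 3′ along the gene's strand, capitals mark an E2F word on either strand. In MCM6 each of the 2 capital runs is a pair of words on opposite strands that overlap.
MCM6, chr2:135876510-135876607, minus strand: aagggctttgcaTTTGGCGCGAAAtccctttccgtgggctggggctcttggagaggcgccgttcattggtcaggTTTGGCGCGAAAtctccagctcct
MCM3, chr6:52284897-52284928, minus strand: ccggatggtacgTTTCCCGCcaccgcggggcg
MCM7, chr7:100101565-100101596, minus strand: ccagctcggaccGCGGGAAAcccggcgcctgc
MCM7, chr7:100101398-100101418, minus strand: tggggggcgacgTTTCGCGCc
CDT1, chr16:88803742-88803773, plus strand: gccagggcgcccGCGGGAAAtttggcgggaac
GMNN, chr6:24775321-24775352, plus strand: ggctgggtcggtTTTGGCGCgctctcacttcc
PCNA, chr20:5126662-5126693, minus strand: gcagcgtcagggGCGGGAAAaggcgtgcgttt

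The E2F words of MCM2 and CDC6 lay after the start of transcription. Counted from the start of transcription, the word shown for MCM3 begins at -174, and a second MCM3 word, not shown, spans the start. MCM7 held words from -187 and -9, and the word of CDT1 began at -35. CCAAT was held by 9 of the 12 windows of these genes and by 34.6% of all promoters, and the GC box GGGCGG by 10 of the 12 windows and 45% of all promoters. The CHR word TTTGAA, known from genes of the G2 and M phases, was held by 0 of the 12 windows and by 15.2% of all promoters. These are matches of letters and were not tested as binding sites. Several genes had more than 1 promoter entry, and 8 of the 12 windows held an E2F word, beside the 3.31% of all promoters. Counted by gene, 3.99% of all symbols with an entry held one. GMNN, MCM7 and PCNA also had entries without an E2F word. The PCNA entry with a word is the upstream one. ENST00000379160, the PCNA transcript starting upstream, held 2.26% of summed PCNA transcript FPKM in NC and 2.67% in FGL1-OE. The GMNN entry with a word is the downstream one. ENST00000230056, with 74.1% and 72.1% of GMNN, starts upstream of ENST00000620958, with 1.95% and 2.72%. By their order along the gene, the leading transcripts of PCNA (ENST00000379143) and GMNN (ENST00000230056) go with the entries without a word. Transcript and promoter positions are on different genome builds, and this pairing was not tested.

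The targeted gene matched the labels. FGL1 was listed at 0.0202, 0 and 0.106 FPKM (fragments per unit of transcript length, scaled to the mapped fragments of the library) in NC 1, NC 2 and NC 3, and at 33.5, 39.3 and 39.9 FPKM in the FGL1-OE libraries. It was higher by 5.21 (SE 0.15) on the log2(FPKM + 1) scale, with an adjusted p of 1.29e-05 in limma with Benjamini-Hochberg adjustment over 12017 tested genes. It was the only gene that passed the threshold of 0.05, so 0.00832% of the tested genes were called. The libraries were not equally alike. Correlations of log2(FPKM + 1) between pairs of libraries ran from 0.888 to 0.965 within NC and from 0.982 to 0.986 within FGL1-OE. Summed FPKM of the listed genes ran from 210904 in NC 1 to 226307 in NC 2, and the number of reads behind these values is unknown. Epithelial markers summed to 983 to 1742 FPKM in NC and 1376 to 1601 in FGL1-OE. The 3 fibroblast markers listed summed to 2.29 to 8.11 and 3.24 to 8.27 FPKM, and the 2 leukocyte markers listed to 3.11 to 6.06 and 3.62 to 5.67 FPKM. The endothelial markers were not analysed here. Of the markers of squamous and epithelial cells, KRT6A was listed at 108 to 197 FPKM over the 6 libraries, SFN at 198 to 459, the simple-epithelial keratin KRT8 at 218 to 465 and KRT5 at 4.27 to 6.24, TP63 was under the filter and KRT14 was not analysed here.

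RNA of the licensing genes was present in every library, and no difference between FGL1-OE and NC passed the test. Of the 10 genes, 0 passed the test and 0 had an unadjusted p under 0.05, beside 242 of all 12017 genes (2.01%) at that unadjusted threshold. MCM7, CDC6 and PCNA were higher in every FGL1-OE library than in every NC library, by 0.32, 0.20 and 0.19 on the log2(FPKM + 1) scale, and the other 7 overlapped between the groups. All genes tested gave such a separation upwards in 4.09% and downwards in 3.06% of cases, and no licensing gene lay below. Over the 10 genes the median log2 difference was 0.14, with 7 above 0, beside a median of 0.02 over all genes tested, of which 53.7% lay above 0. The genes ranged from -0.12 for MCM2 to 0.32 for MCM7. In a bulk sample, a different share of cells in a phase of the cycle and a different amount of RNA per cell cannot be told apart.

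**Figure D1:**
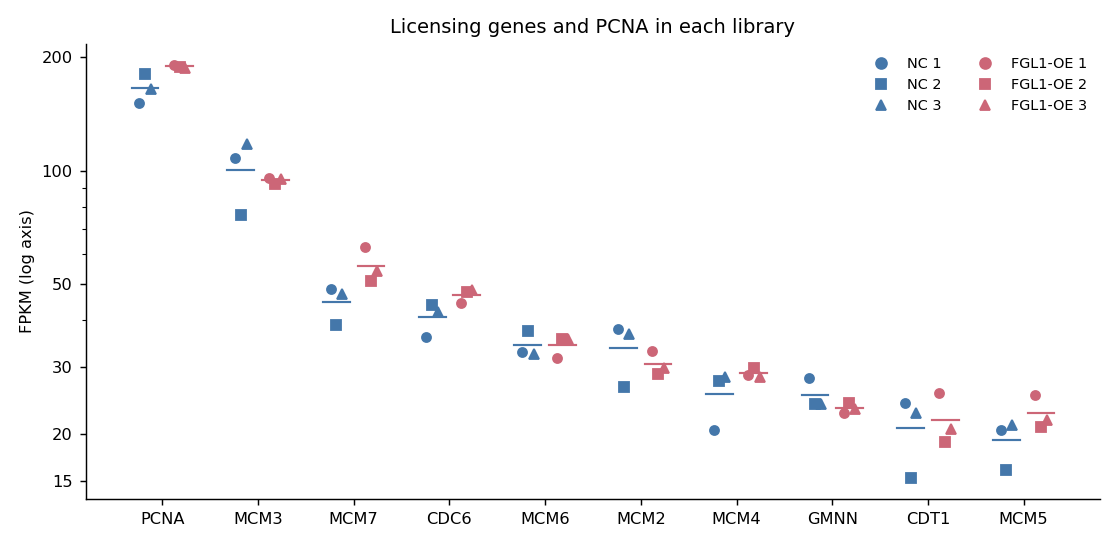
FPKM of the 10 genes (log axis) in the 3 NC (blue) and 3 FGL1-OE (red) libraries, with marker shape for the replicate number and a line at each group mean, in order of mean level. PCNA was highest, at 152 to 191 FPKM, MCM5 and CDT1 lay lowest, and the red points of MCM7, CDC6 and PCNA all sit above the blue ones.

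Of the loading factors, CDC6 was the more abundant and the only one whose groups did not overlap. CDC6, an ATPase that joins ORC at the origin (ENSG00000094804, GRCh37, chr17:38443885-38460909), was at 36.0, 44.02 and 42.2 FPKM in NC and at 44.4, 47.6 and 48.3 in FGL1-OE. The groups nearly met, with FGL1-OE 1 just above NC 2. The difference was 0.20 (SE 0.15, 95% interval -0.15 to 0.54), with an unadjusted p of 0.219 in limma and an exact two-sided permutation p of 0.1, the smallest that 3 against 3 libraries allow. Without NC 1 it was 0.11, and after scaling to a common sum or quantile normalization the CDC6 groups overlapped. CDT1, which brings the MCM ring to ORC and CDC6 (ENSG00000167513, chr16:88869621-88875666), was at 24.1, 15.2 and 22.7 FPKM in NC and at 25.7, 19.0 and 20.6 in FGL1-OE. The CDT1 ranges overlapped, with NC 2 lowest of all 6 libraries and FGL1-OE 1 highest. Its difference was 0.09 (SE 0.21, 95% interval -0.41 to 0.59), and without NC 2 it was -0.11.

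GMNN, the inhibitor of CDT1 (ENSG00000112312, chr6:24775159-24786327), had the steadiest level of the regulators in FGL1-OE. Its NC libraries were at 28.1, 24.0 and 24.0 FPKM and its FGL1-OE libraries at 22.8, 24.1 and 23.3. NC 1 stood above the other 5 libraries, which lay within the same narrow range. The log2 difference of GMNN was -0.11 (SE 0.14, 95% interval -0.44 to 0.22). The ratio of CDT1 to GMNN FPKM was 0.858, 0.635 and 0.944 in NC and 1.13, 0.788 and 0.886 in FGL1-OE. These ratios overlapped between the groups, with means of 0.812 ± 0.159 and 0.935 ± 0.176 (SD, n = 3).

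Among the helicase subunits, MCM7 had the largest difference and MCM6 the smallest. MCM7, part of the helicase's catalytic core with MCM4 and MCM6 (ENSG00000166508, chr7:99690351-99699563), was at 48.5, 38.8 and 46.9 FPKM in NC and at 62.6, 51.0 and 54.1 in FGL1-OE. Its lowest FGL1-OE library, replicate 2, lay above the highest NC library, replicate 1. The difference was 0.32 (SE 0.16, 95% interval -0.06 to 0.69), with an unadjusted p of 0.0894 and an adjusted p of 1.00 in limma with Benjamini-Hochberg adjustment. In place of the deposited gene value, the sum of the listed MCM7 transcripts gave 0.28 with overlapping groups.

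MCM5 (ENSG00000100297, chr22:35796056-35821423), which with MCM2 forms the gate through which the ring opens, was at 20.5, 16.0 and 21.1 FPKM in NC and at 25.4, 20.8 and 21.7 in FGL1-OE. Only FGL1-OE 2 fell within the NC range, just under NC 3. The log2 difference was 0.23 (SE 0.17, 95% interval -0.16 to 0.63), and it was 0.05 for the summed MCM5 transcripts. MCM4 (ENSG00000104738, chr8:48872745-48890720), another catalytic subunit, was at 20.5, 27.6 and 28.3 FPKM in NC and at 28.6, 29.8 and 28.3 in FGL1-OE. NC 1 alone was low, and without it the MCM4 difference went from 0.19 (SE 0.17, 95% interval -0.20 to 0.58) to 0.05. For the summed MCM4 transcripts it was 0.33 without overlap, with FGL1-OE 3 at 46.3 FPKM just above NC 3 at 46.0. MCM6 (ENSG00000076003, chr2:136597196-136633996) was at 32.9, 37.5 and 32.6 FPKM in NC and at 31.8, 35.8 and 35.6 in FGL1-OE. The MCM6 groups covered nearly the same range, with a log2 difference of 0.0035 (SE 0.14, 95% interval -0.33 to 0.34), whose sign turned on scaling to a common sum and on quantile normalization.

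MCM2 and MCM3 were the subunits whose estimates lay below 0. MCM2, a histone-binding subunit (ENSG00000073111, chr3:127317066-127341279), was at 37.9, 26.6 and 36.9 FPKM in NC and at 33.2, 28.8 and 29.8 in FGL1-OE. NC 2 was the lowest of the 6 libraries, while NC 1 and NC 3 were the highest. The MCM2 difference was -0.12 (SE 0.18, 95% interval -0.55 to 0.30), and it was -0.28 without NC 2. MCM3 (ENSG00000112118, chr6:52128807-52149679) was at 108.0, 76.2 and 117.4 FPKM in NC and at 95.4, 92.1 and 95.1 in FGL1-OE. All 3 FGL1-OE values of MCM3 lay between NC 2 and NC 1. The difference was -0.07 (SE 0.19, 95% interval -0.51 to 0.37), and it was -0.25 without NC 2 and 0.05 without NC 3.

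PCNA, which is not a licensing factor but the clamp of the working fork (ENSG00000132646, chr20:5095599-5107272), was the most abundant of the 10 genes. Its NC libraries were at 151.6, 180.9 and 164.6 FPKM and its FGL1-OE libraries at 191.1, 188.5 and 187.6. The NC libraries spread over 14.7 FPKM (SD, n = 3) and the FGL1-OE libraries over 1.86, and every FGL1-OE library lay above NC 2, the highest control. The PCNA difference was 0.19 (SE 0.14, 95% interval -0.14 to 0.52), with an unadjusted p of 0.215 in limma and an exact permutation p of 0.1. After quantile normalization the PCNA groups overlapped. For each of the 10 genes the adjusted p in limma with Benjamini-Hochberg adjustment was 1.00, and the intervals allowed differences of up to 0.69 upwards and 0.55 downwards on the log2 scale.

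**Figure D2:**
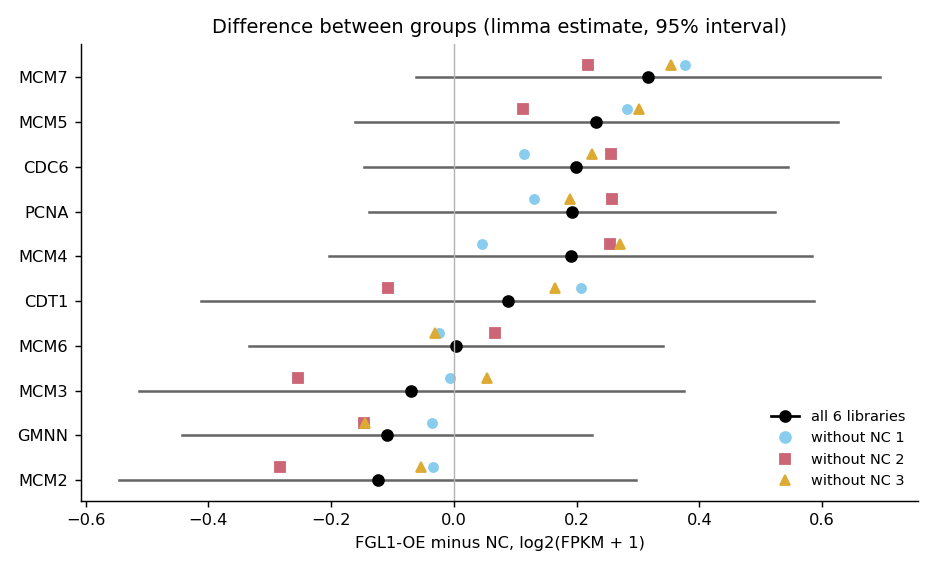
Difference between FGL1-OE and NC in log2(FPKM + 1) for each gene, with its 95% interval from limma over all 6 libraries (black), and the estimate without each NC library in turn (coloured points). Every interval includes 0, and the estimates of MCM2, MCM3, MCM5, MCM7, CDT1 and, by a very small margin, GMNN lie lowest when NC 2 is left out.

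By deposited gene value the levels ran in the order PCNA, MCM3, MCM7, CDC6, MCM6, MCM2, MCM4, GMNN, CDT1 and MCM5. These values are per length of transcript, but their relation to the sum of listed transcripts differed between genes. They were 48.9% to 49.8% of that sum for GMNN and 96.0% to 195% for MCM7, so the order holds for the gene values only. By the sum of listed transcripts PCNA and MCM3 again came first, but GMNN and MCM5 moved up to means of 49.3 and 41.3 FPKM over the 6 libraries, MCM7 lay at 39.2 and CDT1 was last at 21.7. PCNA exceeded MCM3, MCM3 exceeded MCM7 and CDC6 exceeded MCM6 in 6 of 6 libraries, each with an exact sign-flip p of 0.0312, the smallest that 6 libraries allow. Over the 9 neighbouring pairs these sign-flip p-values adjusted to 0.0938. With 6 libraries a pair could pass the threshold only if most pairs reached that smallest p. The pairs also follow the order of these same means, so the adjusted test cannot decide the order. PCNA exceeded MCM3 by 0.87 ± 0.31 and MCM3 exceeded MCM7 by 0.95 ± 0.26 on the log2 scale (SD, n = 6). The other 6 neighbouring pairs had exact p-values from 0.125 to 0.844, and CDT1 and MCM5 differed by 0.01 ± 0.14 on that scale.

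The 6 helicase subunits sit in 1 ring, but their RNA was not at 1 level. By the deposited gene values, MCM3 made up the largest share of the summed MCM2-7 FPKM, 38.6% ± 3.87 in NC and 35.3% ± 0.787 in FGL1-OE (SD, n = 3), and MCM5 the smallest, 7.42% ± 0.229 and 8.48% ± 0.592. The share of MCM7 was 18.1%, 17.4% and 16.6% in NC and 22.6%, 19.8% and 20.4% in FGL1-OE, with no overlap between the groups. The share of MCM5 did not overlap either, at 7.65%, 7.19% and 7.44% in NC and 9.15%, 8.07% and 8.21% in FGL1-OE. Shares of MCM2, MCM3, MCM4 and MCM6 overlapped between the groups. The sum of the 6 subunits itself was 268, 223 and 283 FPKM in NC and 277, 258 and 265 in FGL1-OE, so the total overlapped. By gene values MCM3 exceeded MCM5 5.26-, 4.76- and 5.57-fold in NC and 3.76-, 4.42- and 4.38-fold in FGL1-OE, and every NC ratio lay above every FGL1-OE ratio. These separations rested on the gene values. By the sum of listed transcripts the MCM7 share was 10.96%, 8.98% and 13.1% in NC and 16.7%, 14.3% and 9.19% in FGL1-OE, and the ratio of MCM3 to MCM5 was 3.44, 3.03 and 2.51 in NC and 2.48, 2.78 and 2.94 in FGL1-OE, so both overlapped. Averaged over the 6 libraries, the share of MCM7 went from 19.1% to 12.2%, that of MCM5 from 7.95% to 13.0% and that of MCM3 from 37.0% to 36.9%, and MCM5 was then not the smallest. Shares add up to a fixed total and so do not vary independently, and their differences were not tested.

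**Figure D3:**
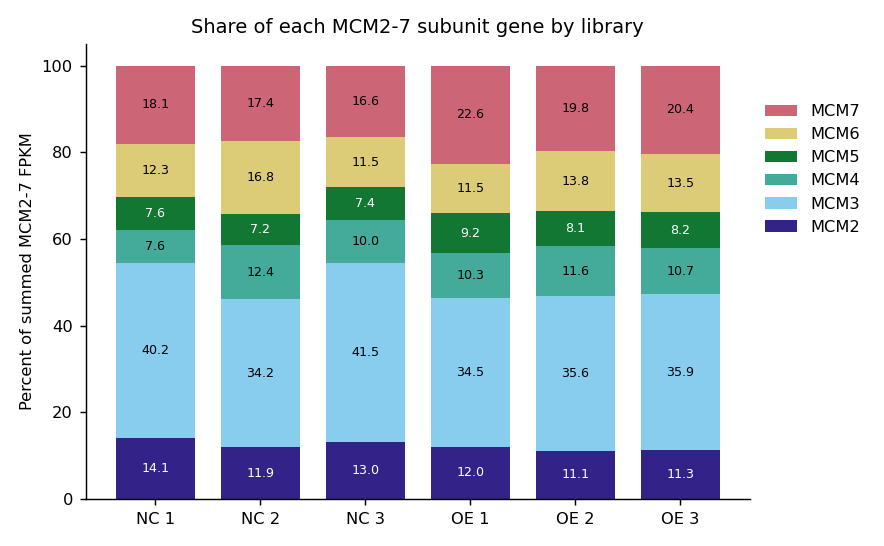
Stacked bars of each subunit's percent of the summed MCM2-7 FPKM (deposited gene values) in each library, with the percents written in. MCM3 takes 34.2% to 41.5%, and the MCM7 share runs from 16.6% to 18.1% in NC and from 19.8% to 22.6% in FGL1-OE.

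On the log2(FPKM + 1) scale the spread between NC libraries was larger than that between FGL1-OE libraries for 10 of the 10 genes. In plain FPKM MCM7 went the other way, with an SD of 5.23 in NC and 5.99 in FGL1-OE. The share of all genes with a larger spread in NC was not counted, but their medians differed in the same direction. The median SD of log2(FPKM + 1) over the 10 genes was 0.189 in NC and 0.0781 in FGL1-OE, beside 0.308 and 0.121 over all genes tested. In 1842 other genes within the same range of mean FPKM it was 0.318 and 0.114. The deviations of the controls from each other moved with base composition. NC 2 lay below the other NC libraries by 0.59 for CDT1, whose main transcript is 64.9% G or C, by 0.56 for MCM3 and by 0.48 for MCM2. It lay above them by 0.19 for MCM4, MCM6 and PCNA and by 0.17 for CDC6, whose main transcripts hold 43.1% to 48.5% G or C, and below them by 0.11 for GMNN, at 43.6%. Across the 10 genes, Spearman's correlation between GC content and this deviation was -0.758, and across 11786 genes with a GC content it was -0.794. For NC 1 these values were 0.552 and 0.7502, and for NC 3 they were 0.685 and 0.318. Each deviation is measured from the other NC libraries, so the correlations for NC 1, NC 2 and NC 3 are not independent. The points of each correlation share 1 library and its base composition, and the part of this in the group differences was not tested.

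With the trend on GC content and transcript length taken out of every library, an alternative chosen after seeing the data, 0 of the 10 genes passed the adjusted threshold. MCM5 and MCM7 then had unadjusted p-values of 0.0357 and 0.00792 in limma, at differences of 0.26 and 0.35, beside 6.38% of all genes at that threshold. MCM5, MCM7, CDC6 and CDT1 then lay above NC without overlap, beside 7.31% of all genes, and PCNA overlapped. CDT1 went from 0.09 to 0.20.

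**Figure D4:**
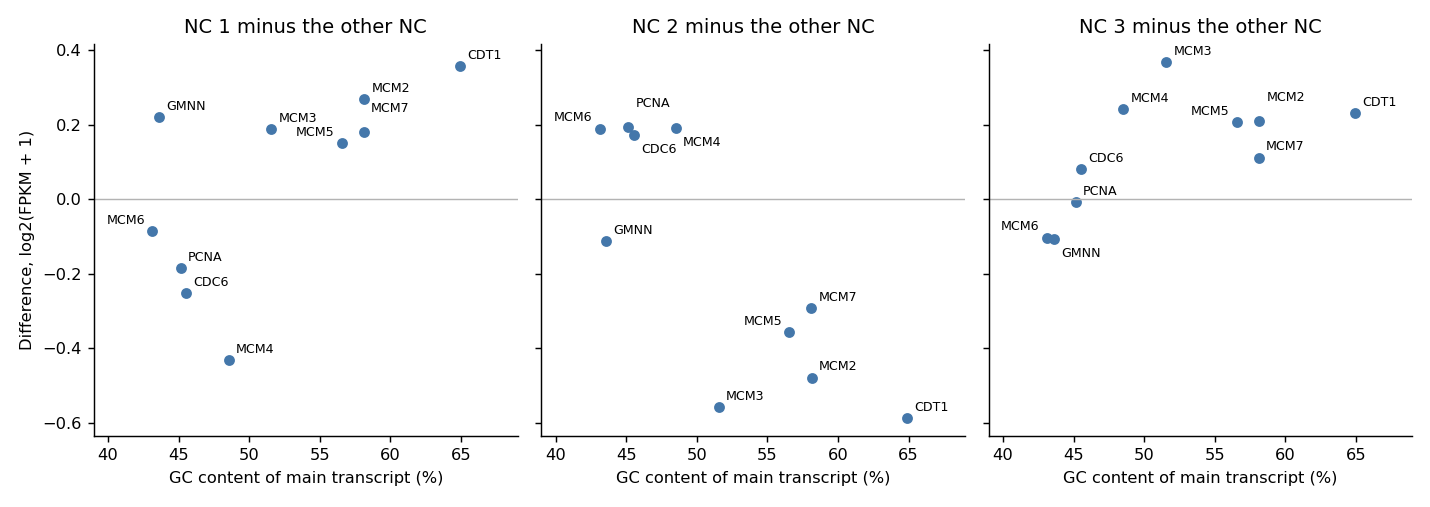
Deviation of each NC library from the mean of the other NC libraries, in log2(FPKM + 1), against the GC content of the gene's most abundant transcript, for the 10 genes. In NC 2 the GC-rich CDT1 lies at -0.59 while MCM4, MCM6, CDC6 and PCNA lie between 0.17 and 0.19.

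Single transcripts gave 0 calls as well. Of the 25 transcripts of the 10 genes, 0 passed the test, beside 5 of 30330 transcripts tested (0.0165%), and 0 had an unadjusted p under 0.05, beside 3.53%. ENST00000209728, which held 92.8% of summed CDC6 transcript FPKM in NC and 94.3% in FGL1-OE, and ENST00000379143, which held 97.7% and 97.3% of PCNA, were higher in every FGL1-OE library. All transcripts tested gave that separation in 4.65% of cases, and the downward one, which no transcript of the 10 genes showed, in 3.57%. ENST00000209728 was at 37.8, 46.5 and 44.5 FPKM in NC and at 46.8, 50.3 and 51.0 in FGL1-OE. ENST00000379143 was at 163, 191 and 178 FPKM in NC and at 205, 204 and 195 in FGL1-OE. Their log2 differences had 95% intervals of -0.33 to 0.74 and -0.33 to 0.70, in that order. For both, as for the genes, the lowest FGL1-OE library lay only just above NC 2.

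The MCM3 transcripts showed the largest swings, and these went between libraries of 1 group rather than between the groups. ENST00000229854 was at 1.64, 54.7 and 136.7 FPKM in NC and at 104.6, 1.00 and 104.2 in FGL1-OE. The log2 difference of ENST00000229854 had an SE of 2.06 and a 95% interval of -4.94 to 5.03. ENST00000596288 was the mirror image of ENST00000229854, at 117.0, 2.93 and 0.459 FPKM in NC and at 1.01, 98.6 and 0.937 in FGL1-OE. NC 1 and FGL1-OE 2 thus had nearly all MCM3 on the second transcript, and NC 3, FGL1-OE 1 and FGL1-OE 3 on the first. In the GENCODE annotation the second transcript holds the first whole, with 86 more bases at its 5′ end, and neither has any stretch of 31 bases absent from the gene's other transcripts. In NC 2, 33.0% went to ENST00000616552, which took 0.365% to 4.79% in the other libraries. Gene-level MCM3 in FGL1-OE, by contrast, lay within 92.1 to 95.4 FPKM.

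MCM5 was divided between 2 listed transcripts. ENST00000216122 was at 23.5, 19.97 and 9.18 FPKM in NC and at 31.1, 22.8 and 29.9 in FGL1-OE, and ENST00000382011 at 14.2, 9.91 and 46.9 and at 15.5, 16.1 and 8.94. NC 3 put 83.6% of MCM5 on the second transcript, while the other 5 libraries put 23.0% to 41.4% there. In MCM4 it was NC 1 that stood apart. ENST00000262105 was at 5.47, 35.0 and 41.0 FPKM in NC and at 40.9, 44.2 and 42.8 in FGL1-OE, and ENST00000523944 at 14.3, 6.10 and 4.06 and at 4.61, 3.41 and 2.38. The first of these took 19.8% of MCM4 in NC 1 and 84.2% to 92.3% in the other libraries.

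**Figure D5:**
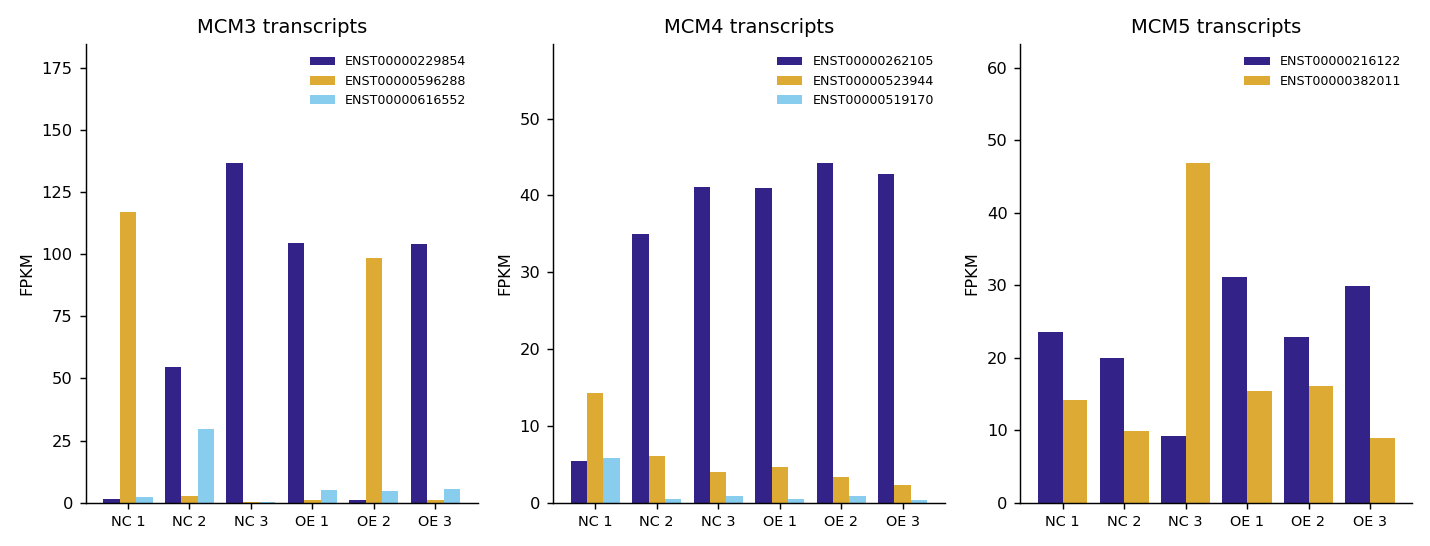
FPKM of the most abundant listed transcripts (up to 3) of MCM3, MCM4 and MCM5 in each library, as bars from 0. NC 1 and FGL1-OE 2 carry MCM3 on ENST00000596288 at 117.0 and 98.6 FPKM, and NC 3 carries MCM5 on ENST00000382011 at 46.9 FPKM.

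The other genes had 1 leading transcript. ENST00000264156 of MCM6 and ENST00000301019 of CDT1 were the only ones listed for their genes, ENST00000265056 held 97.2% of MCM2 in NC and 98.2% in FGL1-OE, and ENST00000303887 held 95.8% and 95.9% of MCM7. ENST00000303887 was nonetheless variable, at 30.999, 22.1 and 48.2 FPKM in NC and at 54.9, 43.0 and 25.9 in FGL1-OE. The deposited gene value of MCM7 was 96.0% to 195% of the sum of its listed transcripts, depending on the library, and that of MCM5 37.6% to 55.9%. In GMNN, ENST00000230056 and ENST00000356509 held 74.1% and 21.1% in NC and 72.1% and 21.4% in FGL1-OE, with 35.8% on the latter in NC 2.

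No gene of the rest of the replication machinery passed the test. Over 8 lists of 74 genes, all tested, 0 were called, 0 had an unadjusted p under 0.05 and 51 had an estimate above 0, with a median difference of 0.07. For 4 of the 74 the lowest FGL1-OE value exceeded the highest NC value, beside 4.09% of all genes, and for 0 the reverse was seen. These were ORC1, CUL1, RFC4 and RNASEH2B, of which RFC4 and RNASEH2B are named after their values were seen. In the ORC list, whose products mark origins, 6 of 7 genes were above 0, with a median of 0.15. ORC1 was the highest, at 0.26 (SE 0.15), and its values of 17.5, 22.0 and 22.4 FPKM in NC lay below 25.2, 25.2 and 24.1 in FGL1-OE. Without NC 1 the ORC1 difference was 0.16. LRWD1, which stabilises ORC on chromatin, was the lowest, at -0.22 (SE 0.29). The other MCM proteins and MCM binding partner had 2 of 4 genes above 0, from -0.09 for MCM8, a recombination helicase, to 0.10 for MCMBP, which binds MCM subunits outside the ring.

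Factors that activate the loaded helicase had 9 of 14 genes above 0 and a median of 0.06. DBF4, the activator of the CDC7 kinase that phosphorylates the MCM ring, was the highest at 0.39 (SE 0.31), and its NC values of 2.02, 6.17 and 4.14 FPKM enclosed those of FGL1-OE, 4.45, 5.91 and 5.69. DONSON was the lowest, at -0.11 (SE 0.14). Genes of the ubiquitin ligases and their partners that turn over CDT1, CDC6 and geminin had 9 of 11 genes above 0 and a median of 0.18. CUL1, the scaffold of the SCF ligase, reached 0.55 (SE 0.26) with an unadjusted p of 0.0663 in limma, at 19.0, 36.2 and 34.5 FPKM in NC and at 37.0, 45.7 and 45.8 in FGL1-OE, and FZR1, an activator of the APC/C ligase, was the lowest at -0.07 (SE 0.26). NC 1 was far below the other 5 libraries for CUL1, and without it the difference was 0.26. For DBF4, without NC 1 it was 0.057 and without NC 2 it was 0.68.

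Around PCNA, the clamp loaders and unloaders had 6 of 9 genes above 0 and a median of 0.17, from -0.06 for DSCC1 to 0.38 for RFC3, a subunit of the clamp loader. The PCNA clients had 6 of 13 above 0 and a median of -0.02. Within them POLD3, a DNA polymerase delta subunit, was the highest at 0.59 (SE 0.41), and POLD4, another subunit of that polymerase, the lowest at -0.27 (SE 0.36). Both were spread widely in NC, POLD3 over 6.15, 23.7 and 9.87 FPKM and POLD4 over 14.1, 4.83 and 5.64. Primase and the leading-strand polymerase had 7 of 8 genes above 0, with a median of 0.17, from -0.02 for POLE4 to 0.30 for PRIM2, the large primase subunit. Fork protection and single-strand binding genes had 6 of 8 above 0 and a median of 0.04, from -0.05 for CLSPN, a checkpoint adaptor, to 0.27 for RPA2, a subunit of the single-strand binding protein. Leaving out NC 1 lowered these upper ends, to 0.052 for RFC3, 0.19 for POLD3, 0.13 for PRIM2 and 0.075 for RPA2, and leaving out NC 2 raised them, to 0.69, 1.08, 0.42 and 0.39.

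Other genes of the cell cycle gave no call either. The E2F and S phase genes outside licensing had 10 of 15 above 0 and a median of 0.03, with E2F1, the archetypal activator of these promoters, lowest at -0.06 (SE 0.22) and RB1, its repressor, highest at 0.36 (SE 0.28). E2F1 was at 34.1, 18.8 and 24.3 FPKM in NC and at 26.3, 22.6 and 23.4 in FGL1-OE. The G2 and M phase genes had 10 of 10 above 0 and a median of 0.11, from 0.02 for CENPF, whose sign turned on quantile normalization, to 0.39 (SE 0.19) for CCNB1, the mitotic cyclin B1. CCNB1 was at 37.2, 55.7 and 52.2 FPKM in NC and at 64.6, 59.6 and 63.6 in FGL1-OE, with no overlap. CCNE1 and TYMS of the E2F and S phase list, named after their values were seen, also lay above NC without overlap. Over all genes tested 4.09% did so. Without NC 1 the CCNB1 difference was 0.21 and that of RB1 0.12. Neither list had a gene with an unadjusted p under 0.05. E2F words were held by 4 of the 11 E2F and S phase genes and 1 of the 9 G2 and M phase genes with a promoter entry. They were held by 1 of 7 ORC genes and by 5 of 8 genes of primase and the leading-strand polymerase.

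Of 8 epithelial markers tested, 6 were above 0, 0 passed the test and 2 had an unadjusted p under 0.05. CDH1, the cell adhesion molecule E-cadherin, was at 44.2, 32.2 and 52.5 FPKM in NC and at 61.7, 61.7 and 62.0 in FGL1-OE, higher by 0.54 (SE 0.20) with an unadjusted p of 0.0263 in limma and an adjusted p of 1.00. Without NC 2 it was 0.35. The other was KRT6A, named after its values were seen, at 160, 108 and 139 FPKM in NC and at 197, 183 and 192 in FGL1-OE. KRT8 had the lowest estimate, at -0.07 (SE 0.28).

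The 10 genes did not follow 1 profile over the libraries. Pearson's correlation of each gene with the mean of their standardised values over the 6 libraries was 0.945 for MCM5, 0.922 for MCM7 and 0.711 for CDT1, between 0.33 and 0.50 for MCM2, MCM3, MCM4, CDC6 and PCNA, -0.387 for GMNN and -0.572 for MCM6. Each of these genes is itself part of that mean, which raises its correlation with it. Among pairs, MCM5 and MCM7 reached 0.967 and MCM6 and CDT1 -0.952. Of the genes outside the 10, the mean profile was most like that of POP4 (0.998), SLC22A4 (0.993), INTS3 (0.987), CHST3 (0.987) and MVK (0.984). These are the highest of all genes tested over only 6 libraries, the points share their libraries and base composition, and the values are given as a description.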

How the data were processed

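RNA of 6 TE-1 libraries (3 NC, 3 FGL1-OE) was enriched for poly(A) and sequenced on an Illumina NovaSeq after a stranded preparation. The authors deposited FPKM values per library for 12180 genes and 33090 transcripts, and the submitters' processing notes name StringTie and GRCh37. The aligner, versions and annotation are not given in the sources used here. Deposited columns of the authors' own comparison (group means, fold changes, p- and q-values) were not used. Depth is unknown, so no counting interval is given and the number of libraries sets the precision.

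Features averaging 0.5 FPKM or more over the 6 libraries were tested on log2(FPKM + 1) in limma 3.58.1 (R 4.3.3) without covariates, with Benjamini-Hochberg adjustment over all 12017 genes or 30330 transcripts tested and a threshold of 0.05. The pseudocount understates differences of low genes. The fit was also run on simulated data, whose outcome is not given here, and 0 calls do not exclude a difference. The genes, the lists, the promoter words and the tests were chosen with earlier results of these data known. Named genes are FGL1, the 10 genes, their transcripts with at least 20% of summed transcript FPKM an unadjusted p under 0.05 or no overlap, the highest and lowest of each list, and the 5 most like the mean profile. Transcript GC content and nesting came from GENCODE 29 sequences, matched by identifier for 97.7% of genes, and promoters from RefSeq, matched by symbol for 8 of the 10 genes; MCM4 and MCM5 had none. Gene coordinates are GRCh37 and promoter coordinates GRCh38.p14. Reads shared with pseudogenes or between transcripts could not be separated in these tables.

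Alternatives were another pseudocount (0.1), no filter or a minimum of 1 FPKM, a common sum, quantile normalization, an ordinary linear model, a mean-variance trend, a replicate block, the sum of listed transcripts, each library left out, and, chosen after seeing the data, removal of GC and length trends and gene-by-gene array weights.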

Additional observations from a re-analysis of the deposited data

How the results depend on the processing

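In every alternative that could be fitted, 0 of the 10 genes and 0 of their 25 transcripts passed the adjusted threshold, and the lowest adjusted p of any of the 10 genes in limma with Benjamini-Hochberg adjustment was 0.0524, in the fit with gene-by-gene array weights, with 1.00 as the highest. That fit, chosen after seeing the data, gave NC 3 a weight of 5.59 and NC 2 one of 0.141. It put 5 of the 10 genes under an unadjusted 0.05, beside 4066 of all genes (33.8%), and 1327 of all genes past the adjusted threshold. Of the 25 transcripts, 4 were under an unadjusted 0.05, and the share of all transcripts there is not given here. At the adjusted threshold it called 37 of all transcripts. Array weights by limma's default method were not used, since that method did not converge, with weights from 0.0478 to 1110; its calls would be 5 of the 10 genes and 5004 of all genes. With GC and length trends removed, 2 of the 10 genes, and 752 of all genes, had an unadjusted p under 0.05, and 2 of all genes an adjusted one. The ordinary linear model gave 2 and 374 genes and 3 transcripts, and a pseudocount of 0.1 gave 29 transcripts. Leaving out 1 library gave 1 to 7 genes and 138 to 2610 at the unadjusted threshold, and 1 to 28 transcripts, the highest of each without NC 2. It gave 0 to 1 of the 25 transcripts at the unadjusted threshold, where the share of all transcripts is not given here. It also gave 3 to 5 of the 10 genes without overlap (5 without NC 2, NC 3 or FGL1-OE 2). Without NC 2 these were 3 above and 2 (MCM2 and MCM3) below, beside 21.7% and 21.3% of all genes, without NC 3 5 above, beside 8.20%, and without FGL1-OE 2 4 above and 1 (GMNN) below, beside 6.54% and 5.19%. A common sum left 2 above (MCM7 and PCNA), beside 4.04%, and quantile normalization 2 (MCM5 and MCM7), beside 3.92%. By the sum of listed transcripts 3 lay above (MCM4, CDC6 and PCNA), beside 4.28%. The median over the 10 genes stayed between 0.05 and 0.18.

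Libraries with the same replicate number were not treated as pairs: deviations from the group means correlated at 0.345, 0.282 and -0.0614 for numbers 1 to 3. With a replicate block, 0 of the 10 genes were called at either threshold, beside 2.48% of all genes at the unadjusted one. Of the 25 transcripts, 1 was under the unadjusted threshold, and the share of all transcripts there is not given here. At the adjusted threshold 0 of all transcripts were called.

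Direction held in every alternative for 7 of the 10 genes, 15 of 27 other named genes and 6 of 14 named transcripts. On leaving out 1 library, MCM3 ran from -0.25 to 0.054, MCM6 from -0.031 to 0.067, CDT1 from -0.11 to 0.21, LRWD1 from -0.54 to 0.057, MCM8 from -0.23 to 0.025, FZR1 from -0.37 to 0.17, DSCC1 from -0.15 to 0.10, POLD4 from -0.53 to 0.15, POLE4 from -0.33 to 0.29, CLSPN from -0.13 to 0.029, E2F1 from -0.25 to 0.16, CENPF from -0.17 to 0.17 and KRT8 from -0.38 to 0.16. So did ENST00000229854 from -1.64 to 1.95, ENST00000596288 from -2.15 to 1.61, ENST00000382011 from -0.93 to 0.13, ENST00000264156 from -0.032 to 0.067, ENST00000301019 from -0.11 to 0.21, ENST00000230056 from -0.30 to 0.069 and ENST00000356509 from -0.28 to 0.40. A common sum gave MCM6 -0.0034, and quantile normalization gave MCM6 -0.012, CENPF -0.00014, ENST00000264156 -0.016 and ENST00000356509 -0.0026. With GC and length trends removed MCM6 was -0.058, FZR1 0.046, E2F1 0.029, CENPF -0.037, ENST00000264156 -0.052 and ENST00000356509 -0.076. Gene-by-gene array weights gave CDT1 -0.12, DSCC1 0.12, ENST00000229854 -1.67, ENST00000596288 1.63, ENST00000303887 -0.24 and ENST00000301019 -0.056. The sum of listed transcripts gave MCMBP -0.038, DONSON 0.045 and FZR1 0.027, and a pseudocount of 0.1 gave ENST00000229854 -0.038. The cause was not tested.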
